A study of Mus musculus with 8 samples.

Results

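Transcripts of the collagen chains and of the enzymes that fold, modify, trim and crosslink them were followed in mouse embryonic fibroblasts (MEFs) with floxed H3f3b alleles. Genes were taken by symbol, as every gene named in the style of Col1a1 plus a set of collagen-processing enzymes. The array held 78 probes for 52 such genes, 37 chains and 15 enzymes. After a filter that asked for a detection p-value under 0.05 on at least 3 of the 8 arrays, 31 genes were left, 18 chains and 13 enzymes, of 8488 genes in all. A detection p-value compares a probe with the negative control beads of its own array.

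All cells were MEFs of strain C57BL6J and genotype H3f3b Fl/Fl, taken from embryos at E12.5. The Cre arm was transduced with Cre retroviruses (the vector CRE-IRES-GFP) and the GFP arm with the IRES-GFP vector alone, so cells of both arms carried a retrovirus and GFP, and only the Cre arm carried Cre. Each arm had 4 arrays from 3 lines, cKO1, cKO2 and pcKO1, with cKO2 hybridized as analytical duplicates, so the 2 cKO2 pairs counted as 1 line. Per the methods, cells were harvested a few days after transduction, and the methods mention no sorting. They report that flow cytometry of small portions of the cells found GFP in the large majority in every sample. H3f3b is 1 of the 2 genes for histone H3.3, a replacement variant laid down independently of DNA replication. The H3f3b signal left in Cre arrays was 2.50% of the GFP array for cKO1, 2.89% for cKO2 and 22.2% for pcKO1. The adjusted p of H3f3b was 0.188 in the limma fit over lines. Culture names in the table with detection p-values differed from the line names, and 1 of them stood for 2 of the 4 pairs, once as a pooled culture. Lines may thus not be separate embryos, in which case p-values measure only the spread between these cultures. No slide or scan date was given in the files or labels used here.

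Collagens are secreted proteins built of 3 chains wound into a triple helix. Fibroblasts are their main source in connective tissue, where the fibrillar collagens, above all type I, give tensile strength, type VI forms beaded filaments around cells and type IV forms the sheet of basement membranes. In the endoplasmic reticulum prolyl and lysyl residues of the chains are hydroxylated and a dedicated chaperone holds the helix. Outside the cell the propeptides are cut off and lysyl oxidases crosslink the fibrils.

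The cultures carried fibroblast markers. Of 11 fibroblast markers on the array 10 passed the detection filter, Fap being the exception, and their summed deposited signal ran from 21324 to 32114 on GFP arrays and from 19957 to 33681 on Cre arrays. None of 6 endothelial markers passed (Cdh5, Emcn, Kdr, Pecam1, Tek and Tie1). Of 7 cartilage markers 3 passed (Acan, Comp and Sox9), with summed signals of 895 to 1066 on GFP arrays and 917 to 1120 on Cre arrays, while Chad, Hapln1, Matn1 and Matn3 did not. Of 4 smooth muscle markers Tagln and Acta2 passed. Of the other lists, 2 of 5 osteoblast, 1 of 3 epithelial, 1 of 2 macrophage, 1 of 3 skeletal muscle and 1 of 3 neural markers passed.

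No collagen gene passed the test of Cre against GFP over the 3 lines. In the limma fit with line as a block, 0 of the 31 genes were lower in Cre arrays and 0 were higher at an adjusted p under 0.05, and so it was for all genes tested, of which 0% were called lower and 0% higher. The smallest adjusted p among the collagen genes was 0.967. At an unadjusted p under 0.05 there were 3 collagen genes among the lower ones, Col2a1, Col4a1 and Col6a2, against 2.05% of all genes, and 0 among the higher ones, against 1.63%. The count rested on which lines were in the fit: without pcKO1, Col1a1 (-0.67), Col6a1 (-0.72) and Col6a2 (-0.92) passed as lower, with 0.483% of all genes, and without cKO1, Col10a1 (0.60) and Col4a5 (0.61) passed as higher, with 0.459%.

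In line cKO1 most collagen genes were lower on the Cre array, and in pcKO1 they were not. The Cre minus GFP difference, on the log2 scale throughout, was below 0 for 26 of 31 genes in cKO1 (52.4% of all genes), for 22 in cKO2 (48.5%) and for 14 in pcKO1 (50.9%). The median over the 18 chains was -0.49 for cKO1, -0.13 for cKO2 and 0.09 for pcKO1, and over the 13 enzymes it was -0.42, -0.07 and 0.27 in the same order. Col25a1, which was detected on Cre arrays only, is among the chains, and without it, an alternative added after seeing the data, the chain medians were -0.53, -0.14 and 0.15. Over the chains detected on all 8 arrays the cKO1 median was -0.67. The medians over all 8488 genes were -0.03, 0.01 and -0.01. Under median scaling, in place of quantile normalization, the median of all genes in cKO1 moved to -0.16 and 67.0% of all genes were lower there, with 26 collagen genes lower and a chain median of -0.61. With the deposited values as they stand, 24 collagen genes and 44.7% of all genes were lower there. A difference of at least 1.5-fold downward was seen in cKO1 for 12 collagen genes against 7.92% of all genes, in cKO2 for 0 against 0.424% and in pcKO1 for 0 against 1.54%. Upward by 1.5-fold, pcKO1 had Col10a1, Col4a5 and Col3a1, 3 of 31 against 1.70% of all genes. Of these, Col10a1, also among the 12 lower in cKO1, was detected on 3 of 8 arrays only. A dimmer probe of Col3a1 gave -0.03 in pcKO1. No p-value goes with these counts, since each line has 1 culture per arm.

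**Figure D1:**
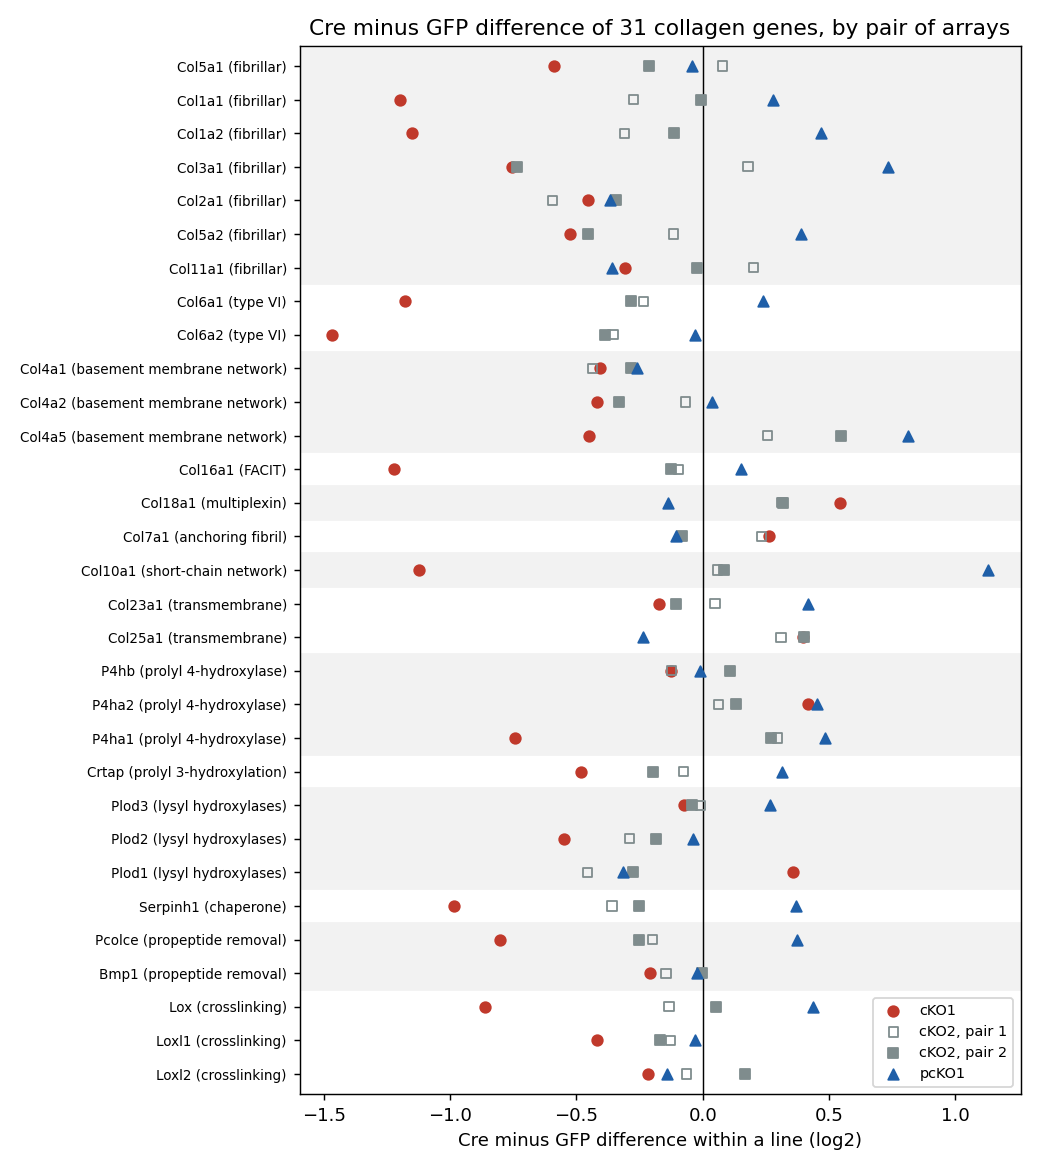
Cre minus GFP difference (x axis, log2) of the 31 collagen genes (rows, with their class) in cKO1 (red circles), the 2 pairs of cKO2 (open and filled grey squares) and pcKO1 (blue triangles), 1 mark per pair of arrays. Red circles lie left of 0 for 26 genes, and blue triangles for 14.

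For 22 genes the difference was ordered with cKO1 lowest, cKO2 between and pcKO1 highest, an order seen in 26.6% of all genes, and 16 were below 0 in cKO1 and above 0 in pcKO1, against 28.3%. The ordered count was between 18 and 23 under the other normalizations tried. This order is the one that the chain and enzyme medians of the same values take, so the count is no separate support for it.

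The fibrillar chains shared a direction in cKO1. All 7 measured (Col1a1, Col1a2, Col2a1, Col3a1, Col5a1, Col5a2 and Col11a1) were lower on the Cre array of cKO1, with a median of -0.59, whereas the median was -0.21 in cKO2 and 0.28 in pcKO1. The exception to the sign under another setting was Col11a1, which stood at 0.03 in cKO1 when the deposited values were used as they stand. The direction was not particular to fibrillar chains. By the brightest probes, all measured type VI, type IV, propeptide removal and crosslinking genes were also lower in cKO1.

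Type I collagen, the main collagen of skin, bone and tendon, is made of the chains of Col1a1 and Col1a2. For Col1a1 the level was 12.67 on the GFP array and 11.47 on the Cre array of cKO1, 13.48 and 13.21 in the cKO2 pair, 13.38 and 13.37 in its duplicate, then 12.90 and 13.18 for pcKO1. For Col1a2 it was 8.66 and 7.51 in cKO1, 10.87 and 10.56 in the cKO2 pair, 11.09 and 10.98 in its duplicate, then 9.68 and 10.15 for pcKO1. In both genes the 2 cKO1 arrays were the lowest of all 8, and the ranges of the GFP and Cre arms overlapped. The Cre array of cKO1 was 2.30-fold lower for Col1a1 and 2.22-fold lower for Col1a2, while that of pcKO1 was 1.21-fold and 1.38-fold higher. Over the lines the differences were -0.35 (SE 0.24, n = 3 lines) and -0.30 (SE 0.26, n = 3 lines), which limma did not separate from 0 at an adjusted p of 0.967 for each.

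The bases upstream of 3 genes that shared the cKO1 pattern are shown, a fibrillar chain, a type VI chain and the collagen chaperone, because all 3 had this pattern and the motifs found in them differed. RefSeq starts on GRCm38.p6 were matched for 23 of the 31 genes, and the windows are the 250 bases before the annotated start, 5′ to 3′ on the gene's strand. Capitals mark the CCAAT box (CCAAT) and the GC box (GGGCGG), each searched on both strands, and no match of either overlapped a match of the other in the windows of these genes. The windows are chr6:4505368-4505617 (plus strand) for Col1a2, chr10:76726045-76726294 (minus strand) for Col6a1 and chr7:99353240-99353489 (minus strand) for Serpinh1.
Col1a2: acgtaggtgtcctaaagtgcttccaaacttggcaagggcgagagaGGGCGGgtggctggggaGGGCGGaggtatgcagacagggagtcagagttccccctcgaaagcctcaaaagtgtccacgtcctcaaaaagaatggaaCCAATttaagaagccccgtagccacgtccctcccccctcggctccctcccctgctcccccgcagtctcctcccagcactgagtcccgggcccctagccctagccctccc
Col6a1: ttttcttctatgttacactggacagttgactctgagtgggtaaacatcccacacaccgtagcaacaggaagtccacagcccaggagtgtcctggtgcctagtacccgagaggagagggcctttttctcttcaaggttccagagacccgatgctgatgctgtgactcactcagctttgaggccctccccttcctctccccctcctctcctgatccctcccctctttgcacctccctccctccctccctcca
Serpinh1: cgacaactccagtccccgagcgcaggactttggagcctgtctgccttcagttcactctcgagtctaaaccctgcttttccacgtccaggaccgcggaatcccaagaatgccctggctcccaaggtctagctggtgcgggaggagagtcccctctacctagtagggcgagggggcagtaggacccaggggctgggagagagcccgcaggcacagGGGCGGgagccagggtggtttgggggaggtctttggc
The Col1a2 window held 1 CCAAT match, starting 109 bases before the annotated start, and 2 GC box matches, the Serpinh1 window held 1 GC box match at 37 bases, and the Col6a1 window held neither. The 23 genes had 25 windows. A CCAAT match was in 11 of the 25 against 33.8% of all 32851 windows. A GC box match was in 18 of 25 against 32.7%, and a TATAA match in 4 of 25 against 22.8%. All 32851 windows include those of genes not detected in these cells. These matches describe the letters only.

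Col3a1 encodes the chain of type III collagen, which is found with type I in soft tissues. Its level was 7.88 on the GFP array and 7.12 on the Cre array of cKO1, 9.13 and 9.31 in the cKO2 pair, 9.80 and 9.06 in its duplicate, then 9.49 and 10.22 for pcKO1. The duplicates of cKO2 thus went opposite ways, by 0.18 and -0.74, further apart than the cKO1 arrays were, and a dimmer probe of the gene gave -0.03 in pcKO1 where this one gave 0.73. For Col5a1, a type V chain that sets fibril diameter, levels were 12.63 and 12.05 in cKO1, 13.19 and 13.27 in the cKO2 pair, 13.29 and 13.08 in its duplicate, then 13.18 and 13.14 for pcKO1. Apart from the cKO1 pair, all Col5a1 levels lay within 13.08 to 13.29. Col5a2, a type V partner chain, differed by -0.53 for cKO1, -0.28 for cKO2 and 0.39 for pcKO1, and Col11a1, a minor chain of cartilage fibrils, by -0.31, 0.09 and -0.36.

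Col2a1, the major fibrillar chain of cartilage, was lower on the Cre array in all 4 pairs. Levels were 6.67 and 6.21 in cKO1, 8.72 and 8.13 in the cKO2 pair, 8.5 and 8.16 in its duplicate, then 9.08 and 8.72 for pcKO1. Differences ran from -0.37 in pcKO1 to -0.47 in cKO2, and their mean was -0.43 (SE 0.13, n = 3 lines; limma adjusted p = 0.967). The gene was detected on 3 arrays of each arm. The other kept probe of Col2a1 gave -0.16, -0.29 and -0.54 for the 3 lines, and with the deposited values as they stand the cKO1 difference was -0.07. Of all genes 8.21% were lower in all 4 pairs, and so were 6 collagen genes, Loxl1, Col4a1, Bmp1, Plod2, Col2a1 and Col6a2. For Bmp1 this held for its brightest probe only.

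The 2 measured chains of type VI collagen showed the lowest class median in cKO1. Col6a2 gave 8.75 and 7.28 in cKO1, 9.05 and 8.70 in the cKO2 pair, 9.23 and 8.84 in its duplicate, then 9.68 and 9.64 for pcKO1. Col6a1 gave 12.07 and 10.89 in cKO1, 12.60 and 12.37 in the cKO2 pair, 12.70 and 12.41 in its duplicate, then 12.52 and 12.76 for pcKO1. The Cre array of cKO1 was the lowest of 8 for both, 2.76-fold below its GFP array for Col6a2 and 2.27-fold for Col6a1. Over lines the difference was -0.62 (SE 0.25) for Col6a2 and -0.40 (SE 0.23) for Col6a1, n = 3 lines each, with a limma adjusted p of 0.967 for both. A further bright probe of Col6a1 gave -1.21, -0.20 and 0.24 in cKO1, cKO2 and pcKO1, close to the -1.18, -0.26 and 0.24 of the brightest one, while a dim probe of the gene gave -0.21, -0.04 and 0.32. Without pcKO1 both chains passed the threshold, as given in the closing section.

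**Figure D2:**
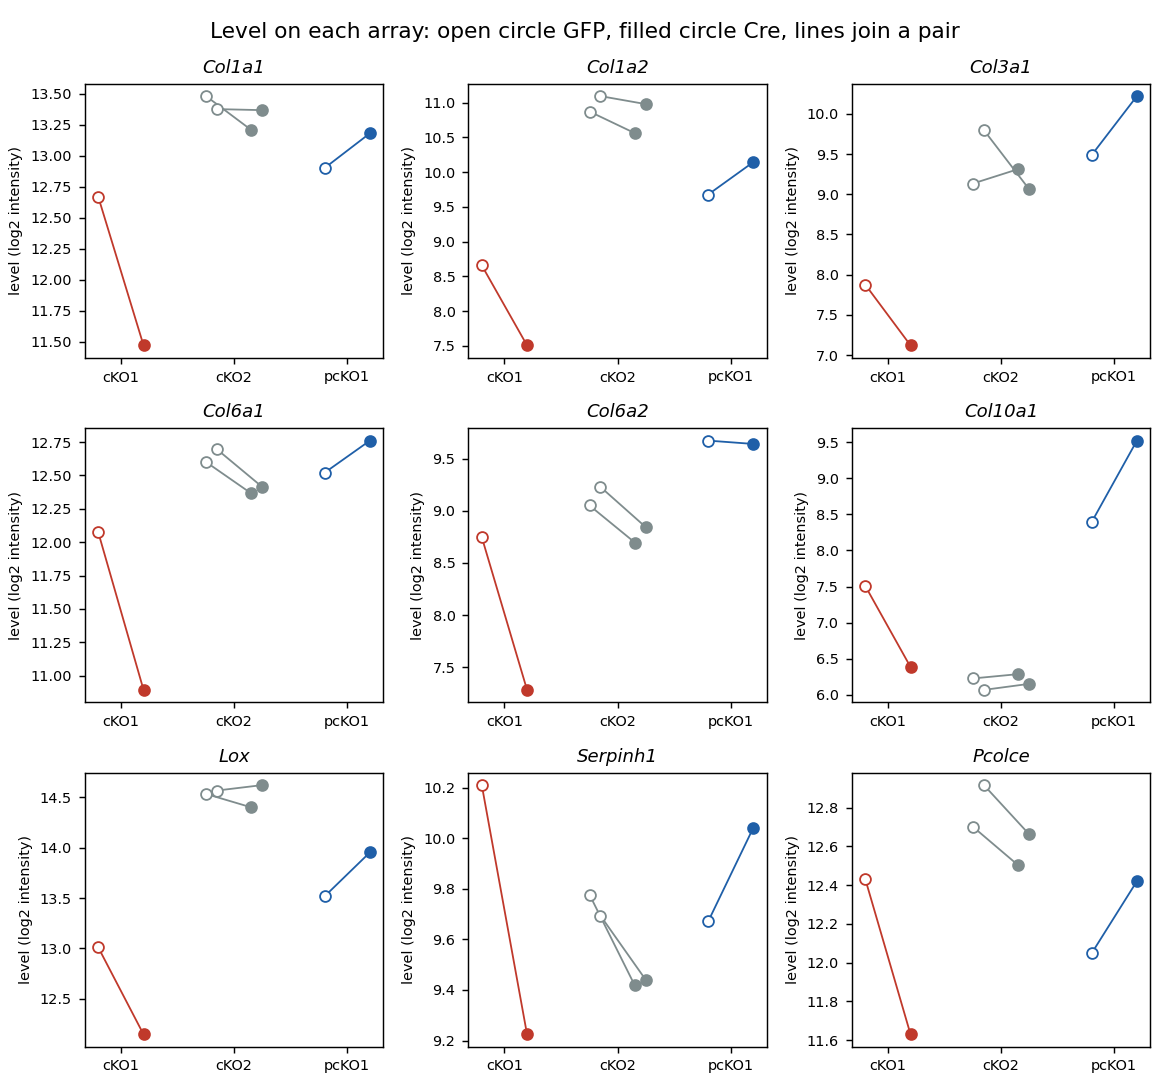
Level (y axis, log2 intensity, its own scale in each panel) of 9 collagen genes on each of the 8 arrays, open circles for GFP and filled circles for Cre, with a line joining each pair of cKO1 (red), cKO2 (grey, 2 pairs) and pcKO1 (blue). Every red line slopes down, and every blue line but that of Col6a2 slopes up.

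The 3 basement membrane chains were all lower on the Cre array of cKO1, and their signs varied in cKO2 and pcKO1. Col4a1, which with Col4a2 makes the common type IV trimer, was lower on the Cre array of every pair, with levels of 11.03 and 10.62 in cKO1, 11.35 and 10.91 in the cKO2 pair, 11.27 and 10.99 in its duplicate, then 11.83 and 11.57 for pcKO1. Its mean difference was -0.34 (SE 0.12, n = 3 lines; limma adjusted p = 0.967). The RefSeq starts of Col4a1 and Col4a2 lie on opposite strands of chromosome 8, at positions 11312826 and 11312805 of GRCm38.p6, 21 bases apart. Col4a2 differed by -0.42 for cKO1, -0.20 for cKO2 and 0.04 for pcKO1, the last being -0.04 under median scaling. Col4a5, an X-linked type IV chain, differed by -0.45, 0.40 and 0.81.

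Among the other chains, Col10a1 had the widest range between lines. It encodes type X collagen, the short-chain collagen of hypertrophic cartilage. Levels were 7.51 and 6.39 in cKO1, 6.23 and 6.29 in the cKO2 pair, 6.07 and 6.15 in its duplicate, then 8.39 and 9.52 for pcKO1. The probe was detected on 2 GFP arrays and 1 Cre array, so that 5 of these 8 levels are not above background and no fold is given. With the deposited values as they stand the difference was -0.59 in cKO1 and 0.99 in pcKO1. The summed signal of the cartilage markers, 4 of 7 of them not above the filter, was 895 and 1008 in cKO1 and 1005 and 1120 in pcKO1 on the GFP and Cre arrays, and its part in the result was not tested.

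Col16a1, a chain that associates with fibrils, was 2.33-fold lower in cKO1 (-1.22) and differed by -0.11 in cKO2 and 0.15 in pcKO1. Col18a1, the basement membrane chain that yields endostatin, ran the other way, with 0.54 for cKO1, 0.32 for cKO2 and -0.14 for pcKO1. The other kept probe of Col18a1, dim and detected on 3 arrays, gave -0.01, -0.01 and -0.02. Col7a1, which forms anchoring fibrils, differed by 0.26, 0.08 and -0.11, and the transmembrane chain Col23a1 by -0.17, -0.03 and 0.42. Col25a1, also a transmembrane chain, was detected on 3 Cre arrays and on 0 GFP arrays, so that its GFP level is a bound and no fold is given. The 19 chains that did not pass the filter (Col4a3, Col4a4, Col4a6, Col5a3, Col6a6, Col8a2, Col9a1, Col9a2, Col9a3, Col11a2, Col13a1, Col14a1, Col15a1, Col17a1, Col19a1, Col24a1, Col26a1, Col27a1 and Col28a1), and the enzymes Loxl3 and P3h2, were detected on at most 2 arrays.

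**Figure D3:**
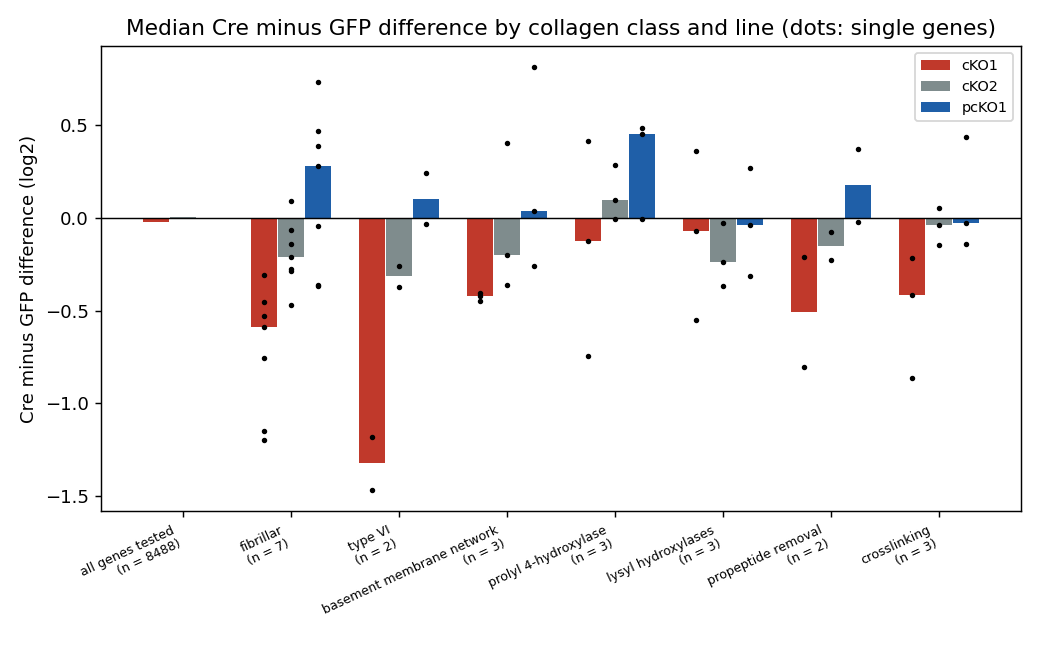
Median Cre minus GFP difference (y axis, log2) by collagen class (x axis, with the number of genes) in cKO1 (red bars), cKO2 (grey) and pcKO1 (blue), beside all 8488 genes tested. Classes of 1 gene, and the transmembrane chains, of which Col25a1 has only a bound, are left out. Dots are single genes. The type VI bar of cKO1, at -1.32, reaches lowest.

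Enzymes of the first steps in the endoplasmic reticulum were mixed. Prolyl 4-hydroxylase, whose product keeps the triple helix stable at body temperature, is made of alpha subunits (P4ha1, P4ha2) and a beta subunit (P4hb, protein disulfide isomerase). P4ha2 was higher on the Cre array in all 4 pairs, as were 7.14% of all genes, and it was the only collagen gene to be so. Its levels were 8.52 and 8.94 in cKO1, 9.09 and 9.15 in the cKO2 pair, 9.14 and 9.27 in its duplicate, then 9.03 and 9.48 for pcKO1, with a mean difference of 0.32 (SE 0.14, n = 3 lines; limma adjusted p = 0.967). P4hb stayed between 13.25 and 13.85, with 13.38 and 13.25 in cKO1, 13.65 and 13.53 in the cKO2 pair, 13.51 and 13.62 in its duplicate, then 13.85 and 13.84 for pcKO1. P4ha1 differed by -0.74 for cKO1, 0.28 for cKO2 and 0.49 for pcKO1, so the 2 alpha subunits had opposite signs in cKO1.

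Lysyl hydroxylases prepare the chains for crosslinking and for added sugars. Plod2, the form that acts on the telopeptides, was lower on the Cre array in all 4 pairs, with levels of 8.12 and 7.57 in cKO1, 9.89 and 9.59 in the cKO2 pair, 9.77 and 9.59 in its duplicate, then 9.0 and 8.96 for pcKO1. Plod3 gave 12.40 and 12.32 in cKO1, 12.66 and 12.65 in the cKO2 pair, 12.62 and 12.58 in its duplicate, then 12.71 and 12.97 for pcKO1. Plod1 differed by 0.36 for cKO1, -0.37 for cKO2 and -0.32 for pcKO1. It stood opposite to most of the list in cKO1 and went with most of it in cKO2. Means over the 3 lines were -0.28 (SE 0.15) for Plod2, 0.06 (SE 0.11) for Plod3 and -0.11 (SE 0.17) for Plod1.

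Serpinh1 encodes HSP47, the chaperone that binds the folded procollagen helix. Its value on every array is given because of its contrast between lines, a choice made after its values were seen. Levels were 10.21 and 9.22 in cKO1, 9.78 and 9.42 in the cKO2 pair, 9.69 and 9.44 in its duplicate, then 9.67 and 10.04 for pcKO1. The GFP array of cKO1 was the highest of 8 and its Cre array the lowest, a 1.98-fold difference. Crtap, a partner of prolyl 3-hydroxylase, differed by -0.48, -0.14 and 0.31 in cKO1, cKO2 and pcKO1, and the other kept probe of the gene by -0.37, -0.19 and 0.54.

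Removal of the C-propeptide is carried out by Bmp1, the C-proteinase, with Pcolce as its enhancer. Adamts2, also sought for propeptide removal, had no probe by that symbol. Pcolce gave 12.43 and 11.63 in cKO1, 12.70 and 12.50 in the cKO2 pair, 12.92 and 12.66 in its duplicate, then 12.05 and 12.42 for pcKO1, so its cKO1 Cre array was the lowest and its pcKO1 pair ran upward. Bmp1 gave 10.22 and 10.02 in cKO1, 12.14 and 11.99 in the cKO2 pair, 12.03 and 12.03 in its duplicate, then 11.28 and 11.26 for pcKO1. The Bmp1 sign in the duplicate cKO2 pair was lost under median scaling (0.07) and with the deposited values (0.03), and in pcKO1 under cyclic loess (0.01). Another probe of Bmp1, detected on all 8 arrays, gave 0.03, 0.20 and -0.17 for cKO1, cKO2 and pcKO1, with a mean of 0.02. A further one detected on all 8 gave -0.58, 0.20 and -0.12, and a dim one gave -0.05, -0.18 and 0.12.

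Lysyl oxidases start the crosslinks. Lox gave 13.01 and 12.15 in cKO1, 14.53 and 14.40 in the cKO2 pair, 14.57 and 14.62 in its duplicate, then 13.52 and 13.95 for pcKO1. The 4 cKO2 arrays were the highest and the 2 cKO1 arrays the lowest, and the Cre array of cKO1 was 1.82-fold below its GFP array. Loxl1, which acts with elastin as well, gave 13.33 and 12.91 in cKO1, 13.60 and 13.47 in the cKO2 pair, 13.75 and 13.58 in its duplicate, then 13.42 and 13.40 for pcKO1, lower in all 4 pairs with a mean of -0.20 (SE 0.11, n = 3 lines; limma adjusted p = 0.967). Loxl2 differed by -0.22, 0.05 and -0.14.

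The contrast between lines was tested as the Cre minus GFP difference in 1 line minus that in another. The residual of this limma fit comes from the duplicate arrays of cKO2 alone. Its p-values therefore weigh the contrast against array-to-array spread, not against the spread between cultures. Against cKO2, the difference in cKO1 was lower for 12 collagen genes, where 5.25% of all genes were, and higher for 0, where 4.06% were. Against pcKO1 it was lower for 14 (7.63% of all genes) and higher for 1, Col18a1 (5.89%). Between pcKO1 and cKO2, 0 genes were lower (0.177%) and 0 higher (0.412%). Lower in cKO1 than in both other lines were 12 collagen genes against 3.76% of all genes, namely the chains Col1a1, Col1a2, Col5a1, Col6a1, Col6a2, Col16a1, Col4a5 and Col10a1, and Lox, P4ha1, Pcolce and Serpinh1. Of these, Col10a1 was detected on 3 of 8 arrays only.

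Chains and enzymes were both among the genes that passed. The 3 lysyl hydroxylases were not, and neither were Col4a2, P4ha2, P4hb and Loxl2, among others. Against pcKO1 the contrast was -1.48 (SE 0.16) for Col1a1, at an adjusted p of 2.64e-05 in limma, and -1.42 (SE 0.17) for Col6a1, at 4.1e-05. For Lox it was -1.30 (SE 0.16), at 6.27e-05, and for Serpinh1 -1.36 (SE 0.21), at 0.000458. Col2a1, Col4a1, Bmp1, Loxl1 and Plod2, lower in every pair by their brightest probe, had contrasts of -0.09 to -0.51 that did not pass. Without 1 cKO2 array in turn, the count against cKO2 ran from 8 to 10 and the count against pcKO1 stayed at 14, while without the variance trend the count against cKO2 was 7. Summed signal of the smooth muscle markers moved in cKO1 too, from 50557 on its GFP array to 39762 on its Cre array. Of these markers only Tagln and Acta2 passed the filter. The sum was 44677 to 51927 on GFP arrays in all and 42455 to 49754 on the other Cre arrays. The fibroblast sum of cKO1 went from 25131 to 23593.5. Median differences of the passing markers in cKO1 were 0.06 for the fibroblast list, 0.23 for cartilage, 0.45 for neural and 0.75 for macrophage. They were -0.37 for smooth muscle, -0.32 for epithelial, -0.28 for skeletal muscle and -0.01 for osteoblast. The part of these marker lists in the result was not tested. In cultures, fewer cells of a kind and less RNA per cell cannot be told apart.

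The lines also differed in how much collagen transcript they held, whichever virus they had received. Taking both arms of a line together, 22 of 31 collagen genes were lower in cKO1 than in cKO2 (19.3% of all genes) and 0 were higher (18.4%). Against pcKO1, 20 were lower in cKO1 (15.3%) and 0 higher (13.8%). Between pcKO1 and cKO2 the counts were 5 lower in pcKO1 (9.97%) and 2 higher (9.80%), the higher ones being Col10a1 and Col4a1. This limma test takes the spread of the Cre minus GFP difference between lines as its error, and the 2 arms of a line as its replicates. Summed signals of some marker lists also stood apart by line. Those of the fibroblast list, 10 of 11 passing, were 19957 to 22107 on cKO2 arrays. They were 23593.5 to 25131 on cKO1 arrays and 32114 to 33681 on pcKO1 arrays. The 5 osteoblast markers, of which Bglap and Bglap2 passed the filter, summed to 902 to 1086 on cKO2 arrays and to 640.5 to 724.5 on the others. The 2 macrophage markers, of which Adgre1 passed and Ptprc did not, summed to 593 to 645 on pcKO1 arrays and to 225.5 to 298.5 on the others. The part of these lists in the result was not tested.

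Chains and enzymes of several roles were among those lower in cKO1. Relative to cKO2, Col1a2 was 6.93-fold lower (log2 difference -2.79, SE 0.32, adjusted p = 0.000459 in limma), Col7a1 5.0-fold (-2.32, SE 0.17), Col18a1 4.20-fold (-2.07, SE 0.20) and Lox 3.87-fold (-1.95, SE 0.25). Bmp1 was 3.80-fold lower, Plod2 3.65-fold and Loxl2 3.43-fold. Members not separated from cKO2 were Col4a1, Col10a1, Col25a1, Serpinh1, Plod1, Plod3, P4hb, P4ha2 and Pcolce. For Serpinh1 the difference over both arms was 0.13 (SE 0.28), which averages the high GFP array and the low Cre array of cKO1.

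**Figure D4:**
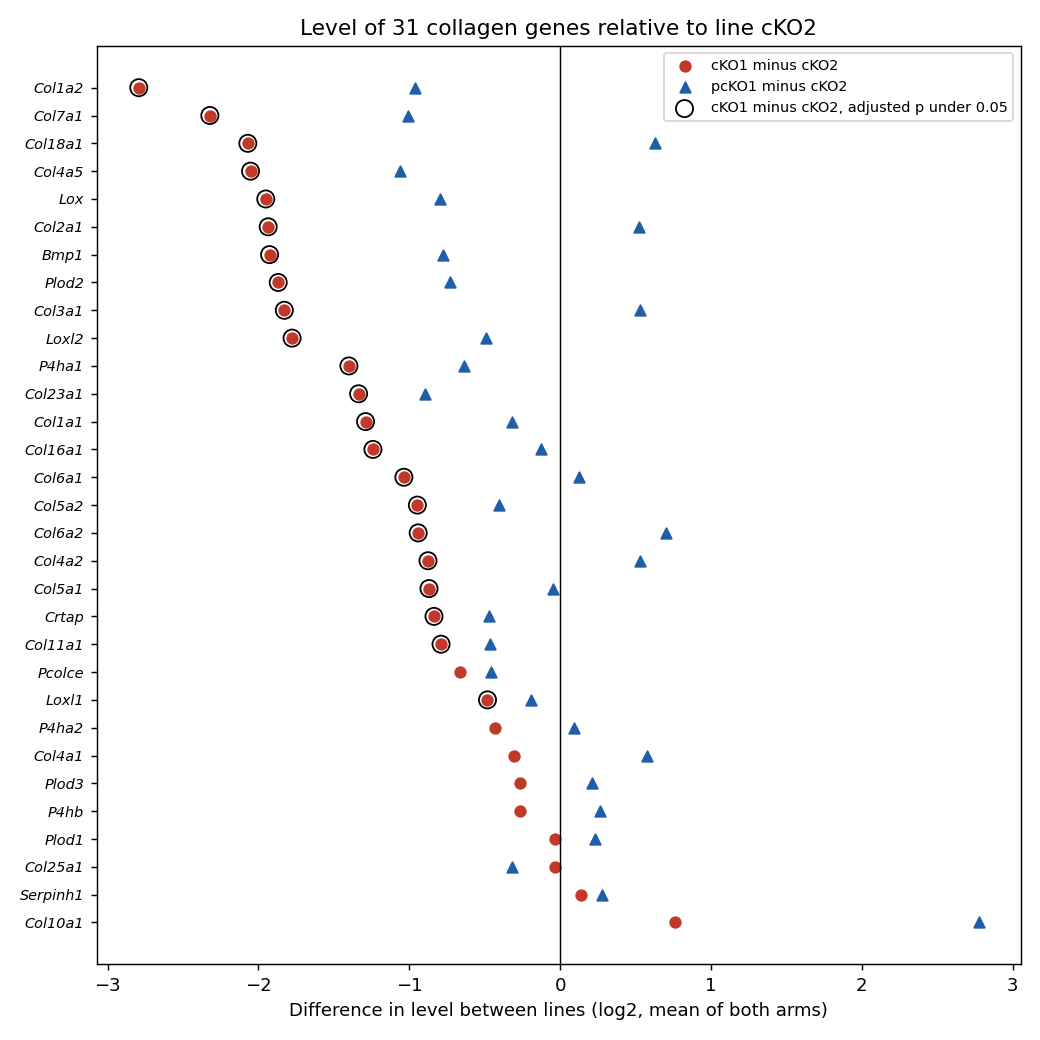
Difference in level (x axis, log2, mean of both arms) of cKO1 (red circles) and pcKO1 (blue triangles) from cKO2 for the 31 collagen genes (rows, ordered by cKO1). Black rings mark an adjusted p under 0.05 for cKO1 against cKO2, which 22 genes have, all to the left of 0.

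On the GFP arrays alone most collagen genes were also lower in cKO1. There 26 collagen genes were lower in cKO1 than in cKO2 (23.3% of all genes) and 2 higher (23.4%), and 20 were lower in cKO1 than in pcKO1 (16.2%) and 2 higher (15.3%). Between pcKO1 and cKO2 the GFP arrays gave 13 lower (19.3%) and 7 higher (20.1%). Here too the error was the spread between the duplicate arrays of cKO2.

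Other genes of the collagen pathway were read from a list of folding, modification, export and receptor genes. Of 23 folding, modification and export genes on the array 16 were measured and of 7 receptors 6, and none passed the test of Cre against GFP in either direction. Median differences were -0.35 for cKO1, -0.09 for cKO2 and 0.11 for pcKO1 for the former and -0.44, 0.00 and 0.11 for the receptors. In the contrast of lines, Sparc, P3h3 and Sec24d, 3 of the 16, were lower in cKO1 than in cKO2 (5.25% of all genes), Sparc, P3h3 and P3h4 were lower than in pcKO1 (7.63%), and 0 were higher. Of the 6 receptors, read against the same shares, Itga11 was lower than in cKO2, and Itga11 and Ddr1 were lower than in pcKO1. Itga11, a subunit of an integrin that binds fibrillar collagen, differed by -1.43 for cKO1, -0.04 for cKO2 and 0.78 for pcKO1, and Sparc, a collagen-binding matrix protein, by -0.65, -0.05 and 0.33.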

How the data were processed

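Biotin-labelled cRNA of each culture was read on Illumina MouseRef-8 arrays and exported with GenomeStudio. The authors deposited intensity values named by sample, on a linear scale and scaled so that every array has a mean of 508.29. In another table the authors deposited detection p-values, whose column names give an arm but no sample, and these served the filter only. The 8 signal columns of that table could not be matched to samples and were not used. Between 10134 and 10580 probes were detected on GFP arrays and 9741 to 10888 on Cre arrays. The number of arrays limits the precision.

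Values named by sample were background corrected (normexp, offset 50), then quantile normalized, then taken to log2. Of 25697 probes (23978 with a symbol, 0 with several and 1719 with none) 11152 were kept at a detection p under 0.05 on at least 3 arrays, and the brightest probe stood for a gene. The cKO2 duplicates, which correlated at 0.994 in each arm, were averaged. Fits used limma 3.58.1 in R 4.3.3 with eBayes and an intensity trend, two-sided, with Benjamini-Hochberg over all genes at 0.05. They were run on simulated data too. For Cre against GFP those data held the same effect in every line. They cannot show how that fit deals with lines that differ. Pairing came from the line names in the labels, and deviations from the arm means correlated within lines at 0.818 (cKO1), 0.919 (cKO2) and 0.749 (pcKO1).

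Values on every array are given for the 8 collagen genes of highest mean level, for those with the same sign in all 4 pairs and for the 6 of widest range between lines. Members and lists were chosen with earlier results of these data known. Other background corrections, normalizations, filters, probe rules, variance priors, pairings and left-out lines or arrays were tried. Sequences and starts are those of RefSeq on GRCm38.p6.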

Additional observations from a re-analysis of the deposited data

Results flagged for a closer look

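The results below are those for which the Cre minus GFP difference (log2) was not the same in 2 lines by the limma test of the contrast, whose error is the spread between the duplicate arrays of cKO2. With 3 lines per arm, no group was large enough for a search for single outlying samples.

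The difference in cKO1 minus that in cKO2 was -1.06 for Col1a1, -0.94 for Col1a2, -0.52 for Col5a1, -0.92 for Col6a1, -1.10 for Col6a2, -1.11 for Col16a1, -0.85 for Col4a5 and -1.19 for Col10a1. Among the enzymes it was -0.82 for Lox, -1.03 for P4ha1, -0.58 for Pcolce and -0.68 for Serpinh1. Adjusted p-values in limma ran from 0.000354 for Col1a1 to 0.0334 for Col5a1 and Pcolce.

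The difference in cKO1 minus that in pcKO1 was -1.48 for Col1a1, -1.62 for Col1a2, -1.49 for Col3a1, -0.55 for Col5a1, -1.42 for Col6a1, -1.43 for Col6a2, -1.37 for Col16a1, -1.26 for Col4a5 and -2.25 for Col10a1. Among the enzymes it was -1.30 for Lox, -1.23 for P4ha1, -1.17 for Pcolce, -1.36 for Serpinh1 and -0.80 for Crtap. Col18a1 was the one gene with a contrast above 0, at 0.68 (SE 0.20, adjusted p = 0.0366 in limma), and it did not pass under 9 of the alternatives, named in the next part. H3f3b had more signal left in pcKO1 (22.2%) than in cKO1 (2.50%), and the part of this in the contrast was not tested.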

How the results depend on the processing

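Of the counts and medians that answer a comparison, those that moved with the processing are given here, and the causes were not tested. The median difference over lines was -0.19 for the chains and -0.10 for the enzymes. With 1 line left out these ran from -0.39 to 0.04 and from -0.23 to 0.03, the upper values being those without cKO1. Under median scaling the chain median became -0.07 in cKO2 and 0.02 in pcKO1, from -0.13 and 0.09, and the enzyme median -0.04 and 0.18, from -0.07 and 0.27. Without cKO1 the collagen genes called in Cre against GFP were 2 higher, Col10a1 (0.60) and Col4a5 (0.61), with 61 genes lower and 39 higher in all. Without pcKO1 they were 3 lower, Col1a1 (-0.67), Col6a1 (-0.72) and Col6a2 (-0.92), with 41 lower and 28 higher in all, and without cKO2 there were 1 lower and 2 higher in all.

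Among all genes, Cre against GFP gave 1 lower under median scaling and with no detection filter, 2 lower and 1 higher with the deposited values, and 4 lower and 1 higher with the cKO2 duplicates as separate pairs. With no replicate block the counts were 0 lower and 0 higher, and the block changed no call.

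With 1 line left out at a time, 16 genes changed the sign of their mean difference, and their values ran over these ranges: Col10a1 (-0.53 to 0.60), Col16a1 (-0.67 to 0.02), Col1a1 (-0.67 to 0.07), Col1a2 (-0.68 to 0.13), Col23a1 (-0.10 to 0.19), Col3a1 (-0.52 to 0.23), Col4a5 (-0.02 to 0.61), Col5a2 (-0.41 to 0.05), Col7a1 (-0.02 to 0.17), Crtap (-0.31 to 0.09), Lox (-0.45 to 0.20), P4ha1 (-0.23 to 0.38), Pcolce (-0.51 to 0.07), Plod1 (-0.34 to 0.02), Plod3 (-0.05 to 0.12) and Serpinh1 (-0.65 to 0.03). Without cKO1 this held for Col1a1 (0.07), Col1a2 (0.13), Lox (0.20) and Col3a1 (0.23), among others. An offset of 16 turned Col10a1 (-0.08) and P4ha1 (-0.03), and median scaling turned P4ha1 (-0.02) and Plod3 (-0.02). The planned correction with inferred negative controls was not run, since its signal columns were not used. In all, 21 of 428 alternative values for single genes changed sign, in 16 genes.

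For the contrast of lines, collagen genes lower in cKO1 than in cKO2 were 7 without the variance trend and 8 to 10 without 1 cKO2 array, and with the deposited values 1 was higher. The 1 gene higher in cKO1 than in pcKO1, Col18a1, was 0 without background correction, under median scaling, with the deposited values, with the mean of probes, without the trend and without each cKO2 array. In pcKO1 against cKO2, 1 was higher without background correction, and 2 with the deposited values and with no detection filter.

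For levels between lines, pcKO1 against cKO2 gave 8 lower with the deposited values, 14 lower without cKO1 and 13 on GFP arrays alone, an alternative chosen after seeing the data, instead of 5. Instead of 2 higher it gave 4 without background correction and with the mean of probes, 1 under median scaling, 5 under cyclic loess and with the deposited values, 3 without the trend, 8 without cKO1 and 7 on GFP arrays. Members higher in cKO1 were 1 against cKO2 without pcKO1, and 2 against cKO2 and 2 against pcKO1 on GFP arrays. Dim probes limit Col10a1, Col11a1, Col23a1 and Col25a1, each detected on 3 to 5 arrays.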
